A study of Mus musculus with 25 samples.

Results

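The genes described here are 10 transcription factors known for their part in the development and identity of conventional dendritic cells (cDC): Irf8, Irf4, Batf3, Id2, Zeb2, Zbtb46, Spib, Spi1, Rbpj and Klf4. They were found by gene symbol among the rows that the platform annotation gives to a single symbol, and all 10 were present among 19938 genes. RNA was measured on 25 Affymetrix Mouse Gene 1.0 ST arrays, 1 for each sort of cells out of Peyer's patches, the lymphoid follicles of the small intestine, of wild-type female C57BL/6 mice aged 6 to 8 weeks. Cells of 42 mice were pooled for each replicate, so each array averages over many animals and cells. Untreated mice gave CD11b+ cDC (CD11c high, MHC II+, SIRPa+, BST2-, CD11b intermediate, CD8a- CD4-, 5 arrays), DN cDC (the same but CD11b-, 3 arrays) and CD8a+ cDC (SIRPa-, CD11b-, CD8a+, 3 arrays). They also gave TIM-4- and TIM-4+ LysoMac, the macrophages of the patch, both sorted as CD11c high, MHC II low, SIRPa+, BST2+ and CD4+ (3 arrays each). Mice gavaged with R848, a ligand of the endosomal receptor TLR7, gave CD11b+ cDC (3 arrays) and CD8a+ cDC (5 arrays) after 9 h. In the labels of the R848 samples the title still reads steady state, so the source and treatment fields decided their group. All levels below are log2 signals, and a difference of 1 is a 2-fold difference.

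cDC fall into 2 lineages in mice. The cDC1 lineage, which carries CD8a in lymphoid organs and cross-presents antigen, depends on Irf8 and Batf3, and the cDC2 lineage, which carries SIRPa and mostly CD11b, depends on Irf4 and, for some of its subsets, on Notch signalling through Rbpj and on Klf4. Id2 restrains E proteins, Zeb2 represses the cDC1 fate in progenitors, Zbtb46 marks cDC against other myeloid cells, and Spi1 (PU.1) is required for the whole myeloid branch. Spib, the closest relative of Spi1, is best known from plasmacytoid dendritic cells, B cells and intestinal M cells.

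RefSeq (GRCm38.p6) held a promoter window, 250 bases before to 50 after a transcript's start, for 9 members, with 14 windows in all. Irf8 has 2 of these windows, of which the first is shown, and Irf4, Batf3 and Spib have 1 each. The windows of Irf8 and Irf4 are shown because these factors moved in opposite directions across the cells, that of Spib because its level had the widest range, and that of Batf3 as the partner of Irf8 in the cDC1 lineage. Each runs 5′ to 3′ on the strand of its gene. Capitals mark matches to TTCNNNGAA, the core that STAT factors recognise, or to TGGGAA, the core that Rbpj recognises.
Irf8 promoter (chr8:120736108-120736407, plus strand): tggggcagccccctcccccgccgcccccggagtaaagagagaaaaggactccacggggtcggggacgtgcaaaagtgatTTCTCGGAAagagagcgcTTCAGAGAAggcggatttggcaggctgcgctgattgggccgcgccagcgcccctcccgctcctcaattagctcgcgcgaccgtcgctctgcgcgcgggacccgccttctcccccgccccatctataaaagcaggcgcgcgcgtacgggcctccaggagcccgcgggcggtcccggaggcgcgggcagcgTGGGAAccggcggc
Batf3 promoter (chr1:191098164-191098463, plus strand): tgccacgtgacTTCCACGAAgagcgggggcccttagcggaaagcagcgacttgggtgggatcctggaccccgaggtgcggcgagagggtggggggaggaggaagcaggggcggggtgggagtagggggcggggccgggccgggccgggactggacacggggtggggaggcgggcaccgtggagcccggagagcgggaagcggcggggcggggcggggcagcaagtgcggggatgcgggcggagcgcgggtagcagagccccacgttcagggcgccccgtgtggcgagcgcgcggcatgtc
Irf4 promoter (chr13:30748983-30749282, plus strand): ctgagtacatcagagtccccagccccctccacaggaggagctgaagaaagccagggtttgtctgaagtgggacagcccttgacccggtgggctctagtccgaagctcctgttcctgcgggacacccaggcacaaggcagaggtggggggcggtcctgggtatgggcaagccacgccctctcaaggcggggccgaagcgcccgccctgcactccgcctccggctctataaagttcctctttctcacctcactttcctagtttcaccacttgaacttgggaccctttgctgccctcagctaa
Spib promoter (chr7:44532022-44532321, minus strand): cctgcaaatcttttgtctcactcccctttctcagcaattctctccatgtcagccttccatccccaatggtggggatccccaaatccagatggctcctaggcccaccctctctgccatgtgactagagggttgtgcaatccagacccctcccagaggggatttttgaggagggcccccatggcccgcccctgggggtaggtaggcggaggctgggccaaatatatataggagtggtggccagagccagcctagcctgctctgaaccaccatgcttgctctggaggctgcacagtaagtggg
The Irf8 window shown held 2 STAT matches, at -171 and -153 bases from the start site, and a TGGGAA at 36. The other Irf8 window, at chr8:120738389-120738688, held a TGGGAA at -242 and E-box letters (CANNTG) at -205 and -193. E-box letters were found in 72.3% of all windows, and also in the Batf3, Irf4 and Spib windows shown. The Batf3 window held 1 STAT match, at -239. The STAT letters were found in 8.3% of all 32851 promoter windows and TGGGAA in 25.6%. The Irf4 and Spib windows held no STAT letters, no TGGGAA and no TGANTCA, the AP-1 and Batf core (7.81% of windows). The composite Ets and IRF motif (2.72% of windows) and the IRF repeat (3.44%) were found in no member window. The composite motif and TGGGAA both hold the letters GGAA, and every motif was searched on both strands. A match is a description of these letters only, and an absent match says nothing about a factor's binding elsewhere.

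The columns of the deposited table fell into 3 array sets with different row orders: a set with all LysoMac arrays and the untreated CD11b+ and DN arrays, a set with the CD8a+ arrays of untreated mice, and the R848 arrays, which the row names fit. Rows of both untreated sets were therefore aligned to the R848 rows and kept only where the match met the acceptance rule, which left 13673 genes with a value on all 25 arrays. Of the members, 9 had accepted rows in every set. Id2 had none in either untreated set, so its untreated levels rest on a looser match and are given apart. R848 treatment coincided with an array set, and untreated CD8a+ cDC were a set of their own, so in any comparison that crosses sets the biology and the set cannot be told apart. The comparison of both subsets after R848 lies inside 1 set and needs no row match.

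The labelled cell types were checked against marker genes. Xcr1, the chemokine receptor of cDC1, stood at 10.92 ± 0.06 in untreated CD8a+ cDC (SD, n = 3) and between 3.46 and 3.91 on average in the other untreated groups. Mertk, a receptor for dying cells on macrophages, stood at 8.46 ± 0.11 in TIM-4- LysoMac and 8.84 ± 0.12 in their TIM-4+ counterparts (n = 3 each) and at 3.98 or less in every cDC group on average. All 4 cDC1 markers tested were higher in untreated CD8a+ than CD11b+ cDC. Itgae was high in both, at 10.87 and 10.02. Of 5 macrophage markers tested, 4 were higher in LysoMac than in CD11b+ and DN cDC, and Fcgr1 was lower. After R848, 3 of 7 cDC2 markers were lower in CD8a+ than in CD11b+ cDC and none was higher. Of all genes 6.65% were lower and 5.76% higher there. Sirpa stood at 6.38 in CD8a+ and 9.73 in CD11b+ cDC, but SIRPa was used in the sort, so its difference follows from the sort. Itgam (4.21 and 4.20) and Cd209a (3.99 and 4.09) were at similar levels in these subsets. Genes of other cells were also present. In DN cDC the mean of 8 stromal and endothelial markers with values on all arrays was 6.29 to 6.67 per array, against 4.20 to 4.86 in CD11b+ cDC, with Sparc at 9.54 ± 0.31 and 4.57 ± 1.02. After R848 the mean of 5 B cell markers was 6.87 to 7.66 in CD11b+ cDC and 5.65 to 6.48 in CD8a+ cDC, against 5.36 to 5.97 and 4.30 to 4.92 without treatment. Cd8b1, a chain of the T cell CD8 receptor, was 7.05 ± 0.57 in CD8a+ cDC after R848 (n = 5) and 3.89 ± 0.24 without treatment (n = 3). In bulk samples of this kind a lower share of a cell type and less of an RNA in each cell cannot be told apart.

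**Figure D1:**
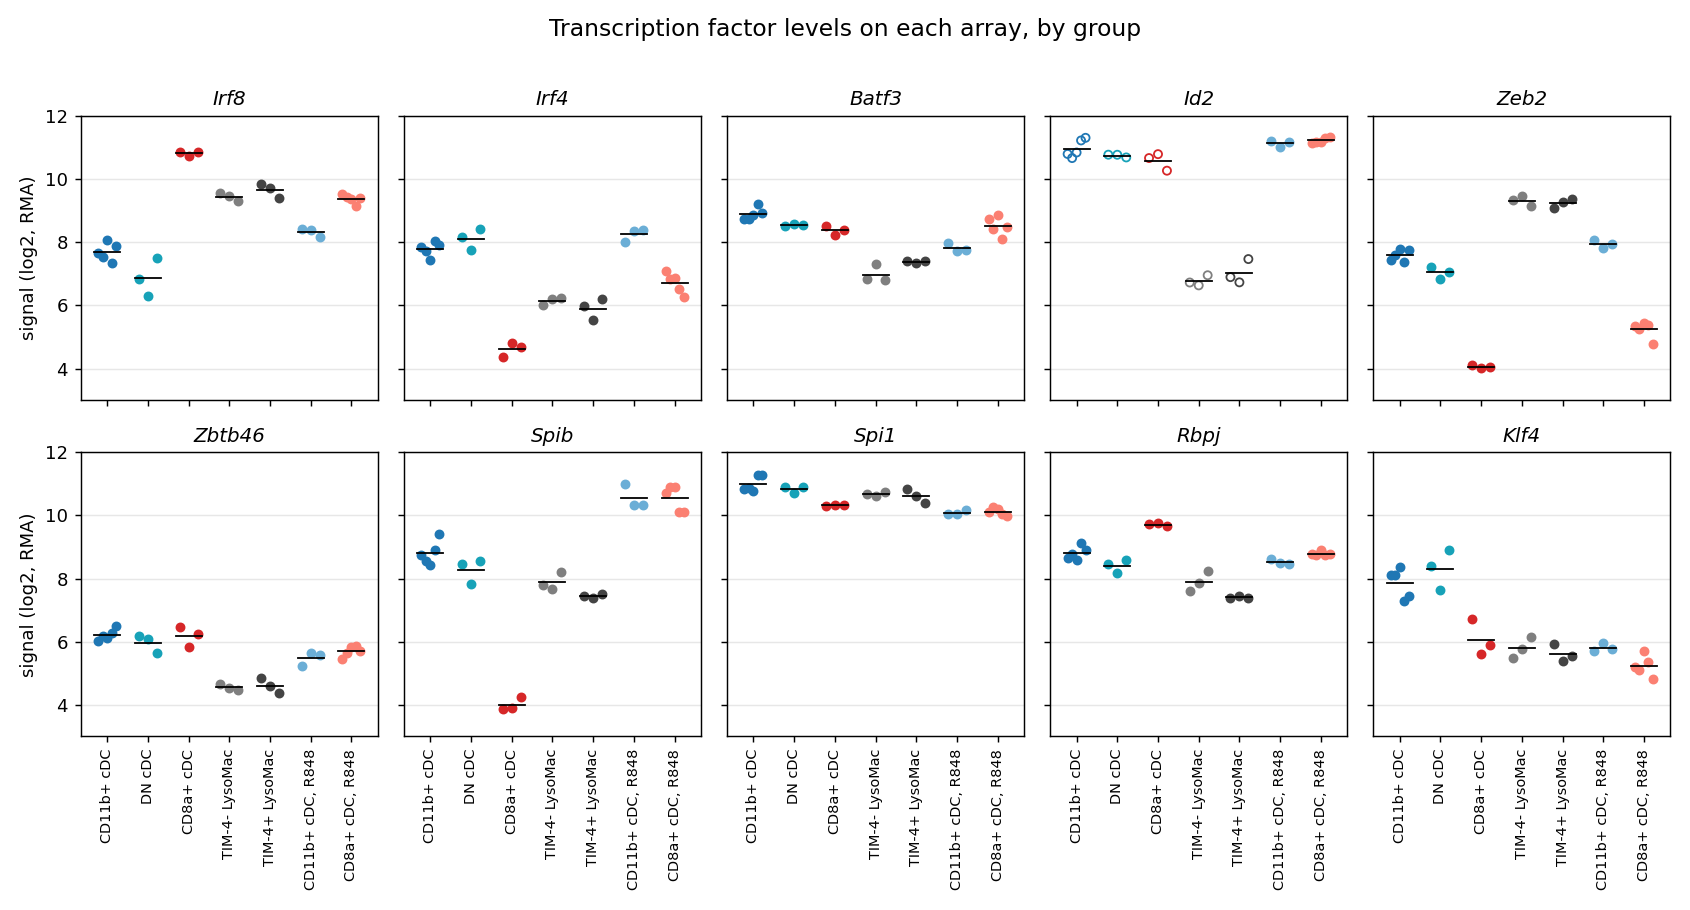
Level of each transcription factor on every array (y axis, log2 signal) in the 7 groups (x axis). Filled points are accepted rows, open points for Id2 are the looser row match, and lines are group means; Spib ranges from 4.00 on average in untreated CD8a+ cDC to 10.56 in CD11b+ cDC after R848, while Spi1 stays between 10.09 and 11.01.

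Differences were tested in limma, with p-values adjusted by Benjamini-Hochberg over all genes with values and called at an adjusted p under 0.05. Of 9 members with accepted rows, 8 differed between the untreated CD8a+ and CD11b+ cDC (2 higher and 6 lower in CD8a+ cDC), where 47.2% of all genes were called, 8.54% higher and 38.7% lower. After R848, inside 1 array set, 4 of 10 differed (Irf8 and Batf3 higher, Irf4 and Zeb2 lower), where 12.4% of all genes were called, 5.76% higher and 6.65% lower. Between DN and CD8a+ cDC 7 of 9 differed (5 higher and 2 lower in DN cDC), where 42.1% of all genes were called, 32.7% higher and 9.37% lower. All 9 differed between LysoMac and the mean of CD11b+ and DN cDC (Irf8 and Zeb2 higher, 7 lower), where 31.4% of all genes were called, 14.6% higher and 16.8% lower. After R848 7 of 9 changed in CD11b+ cDC (3 rose and 4 fell), where 40.7% of all genes were called, 17.4% higher and 23.3% lower. In CD8a+ cDC 7 of 9 changed (3 rose and 4 fell), where 56.6% were called, 41.9% higher and 14.8% lower. The median absolute difference of the members was 0.74 and 0.92, against 0.24 and 0.31 over all genes. The response of the subsets differed for 8 of 9 members, where 32.8% of all genes were called (26.9% higher and 5.94% lower), that is for all but Zbtb46 (0.25 ± 0.21, adjusted p = 0.365). The responses share their untreated and treated arrays with the subset comparisons, so these counts are not independent. Across all genes the median difference was -0.19 for untreated CD8a+ against CD11b+ cDC, 0.16 for DN against CD8a+ cDC, 0.18 for the response of CD8a+ cDC and 0.21 for the difference of responses. The files hold no detection calls. Zeb2 and Spib in untreated CD8a+ cDC and Zbtb46 in both LysoMac groups lay below the median of their own array on every array, and are not shown to be above background there. Folds against those levels are therefore given as bounds, with values below an array's median set to that median (a setting added after seeing the data). With that setting the responses differed for 7 of 9 members, without Zeb2. Some genes of the lists named below lay under the median in 1 of the groups compared too. Counts from those lists are to be read beside the share of all genes called in the same comparison. Relative to a common median, Irf8 and Spib of untreated CD8a+ cDC stood at 3.38 and -4.57 against CD11b+ cDC, and their responses at -1.61 and 6.40.

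Irf8 and Irf4, the paired interferon regulatory factors of the cDC1 and cDC2 lineages, had mirrored levels. Irf8 read 10.86, 10.75 and 10.87 on the untreated CD8a+ arrays, and 7.67, 7.53, 8.08, 7.33 and 7.87 on the CD11b+ arrays. On the DN arrays it read 6.85, 6.28 and 7.50. No CD8a+ array overlapped the others, whereas the CD11b+ and DN arrays did overlap. Irf8 was 3.13 ± 0.19 higher (log2 difference ± SE, 8.77-fold) in CD8a+ than in CD11b+ cDC (limma, adjusted p = 1.87e-11). Irf4 read 4.37, 4.82 and 4.68 on the CD8a+ arrays, 7.43 to 8.05 on the CD11b+ arrays (median 7.85) and 8.15, 7.77 and 8.43 on the DN arrays. It was lower in CD8a+ than in CD11b+ cDC (log2 difference -3.17 ± 0.19, 9.00-fold, adjusted p = 1.43e-11). In LysoMac Irf8 was high, at 9.55, 9.47 and 9.32 in TIM-4- and 9.84, 9.71 and 9.42 in TIM-4+ cells, and Irf4 was intermediate, at 5.53 to 6.25 over both groups. Over the 25 arrays the levels of Irf8 and Irf4 had a Pearson correlation of -0.889, a description, since the arrays of a group share their cells.

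After R848 the gap between the subsets was smaller for both genes. Irf8 read 8.43, 8.39 and 8.16 on the CD11b+ arrays and 9.54, 9.44, 9.37, 9.15 and 9.40 on the CD8a+ arrays. It stayed higher in CD8a+ cDC by 1.05 ± 0.19 (2.08-fold, adjusted p = 0.000382), a comparison inside 1 array set. Irf4 read 8.02, 8.36 and 8.38 in CD11b+ cDC and 7.09, 6.83, 6.88, 6.53 and 6.26 in CD8a+ cDC, a log2 difference of -1.54 ± 0.19 (adjusted p = 4.28e-06). Relative to the untreated arrays, Irf8 fell by 1.45 on the log2 scale in CD8a+ cDC (adjusted p = 1.8e-06) and rose by 0.63 ± 0.19 in CD11b+ cDC (adjusted p = 0.0103). Irf4 rose by 2.10 ± 0.19 in CD8a+ cDC (4.27-fold, adjusted p = 7.86e-09). There Irf4 started from levels near the array medians, with 1 of 3 arrays below, so the fold is uncertain. Its difference in CD11b+ cDC was 0.46 ± 0.19 (adjusted p = 0.0533), and it passed the threshold in 5 other settings with values of 0.46 to 0.65, and without untreated CD11b+ replicate 4 (0.53) or R848 CD11b+ replicate 1 (0.58). The difference between the responses of the subsets was itself called in limma for Irf8 (-2.08 ± 0.27, adjusted p = 7.55e-06) and Irf4 (1.63 ± 0.26, adjusted p = 0.000103). Of the B cell markers tested, 6 of 6 rose after R848 in CD11b+ cDC (median 1.95) and 4 of 5 in CD8a+ cDC (median 1.21). Of all genes 17.4% and 41.9% rose there. The part of B cells in the Irf8 values was not tested.

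Irf4 is also high in plasma cells, so markers of these cells are given beside it. Prdm1, the plasma cell repressor Blimp-1, went from 4.68 ± 0.63 (n = 3) to 6.60 ± 0.70 (n = 5) in CD8a+ cDC and from 5.69 ± 0.41 (n = 5) to 7.75 ± 0.83 (n = 3) in CD11b+ cDC. Of the plasma cell markers tested, 2 of 3 rose in CD8a+ cDC and 2 of 4 in CD11b+ cDC, where 41.9% and 17.4% of all genes did. The mean of 3 markers with values on all arrays was 3.76 to 4.26 per array in untreated CD8a+ cDC and 4.57 to 5.31 after R848, and 4.31 to 4.87 and 4.94 to 5.67 in CD11b+ cDC. Jchain, the joining chain of secreted antibodies, was 10.07 ± 0.58 in DN cDC against 7.59 ± 0.86 in CD11b+ cDC, 10.46 ± 0.91 in CD11b+ and 9.45 ± 1.02 in CD8a+ cDC after R848. Irf4 itself was not called in the response of CD11b+ cDC (0.46, limma, adjusted p = 0.0533). Nor was it called for DN against CD11b+ cDC (0.33, adjusted p = 0.395). The part of plasma cells in the Irf4 values was not tested.

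**Figure D2:**
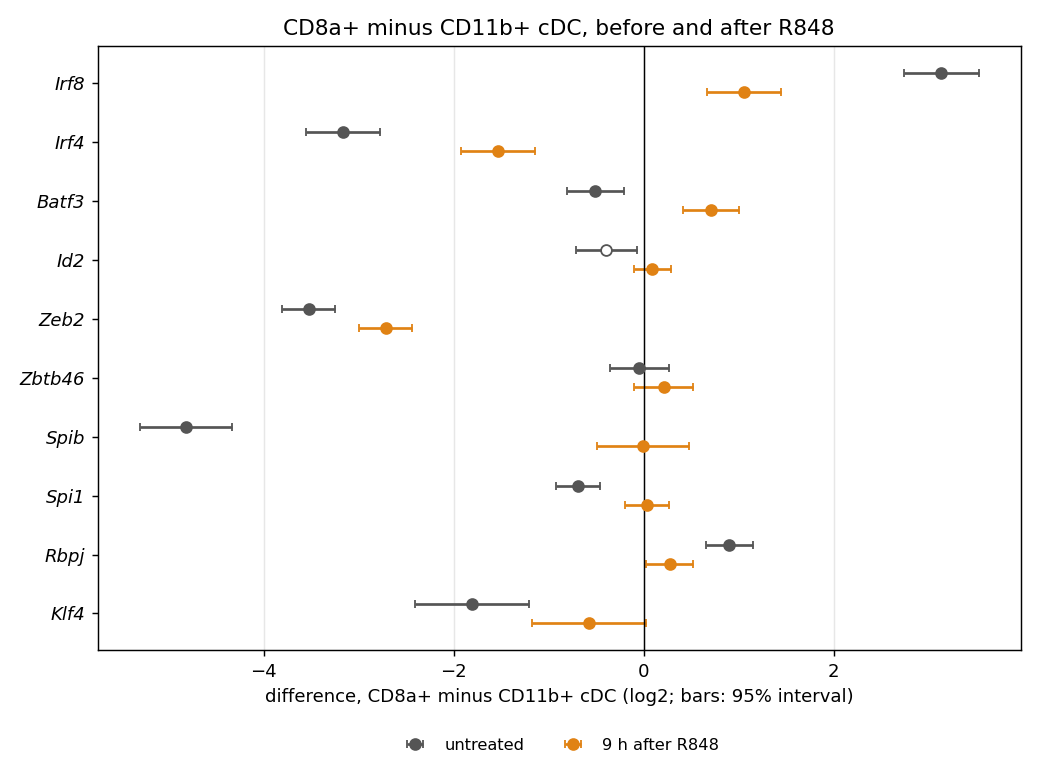
Difference between CD8a+ and CD11b+ cDC for each gene (x axis, log2, with 95% interval) in untreated mice (grey) and 9 h after R848 (orange); the open point for Id2 is the looser row match. Zeb2 is at -3.53 and -2.72, and Spib goes from -4.82 to 0.00. Both were below the array medians in untreated CD8a+ cDC.

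Genes known in mice to depend on IRF8 or BATF3 in cDC1 were listed as a group of 12. After R848 all 12 were tested between the subsets, and 8 were higher in CD8a+ cDC and 1 lower, among them the receptors Clec9a (5.33 ± 0.21) and Xcr1 (4.72 ± 0.12) and the scavenger receptor Cd36 (2.13 ± 0.17). Of all genes 5.76% were higher and 6.65% lower there. The median difference of the 12 was 1.24, against 0.03 over all genes. In untreated cells 6 had accepted rows in both sets, and all 6 of these were higher in CD8a+ cDC, as were 8.54% of all genes. Among the 7 with rows for the R848 comparison of CD8a+ cDC, 7 fell, where 14.8% of all genes did. They include the integrin gene Itgae (-4.10 ± 0.27), Wdfy4, needed for cross-presentation (-3.45 ± 0.24), and the adhesion gene Cadm1 (-2.65 ± 0.17). Of 13 genes known to depend on IRF4, Notch2 or KLF4 in cDC2, 9 were tested between the untreated subsets. Of these 8 were lower in CD8a+ cDC, such as the lectin Cd209a (-2.98 ± 0.29), where 38.7% of all genes were lower. Itgam (-3.21 ± 0.19) is counted among the 8, but it encodes CD11b, on which the cells were sorted, so its difference follows from the sort. The list also holds Sirpa and Cd4, whose proteins were used in the sort. In CD11b+ cDC after R848, 7 of 11 fell and 1 rose, Cd209a by -3.38 ± 0.29 and the lectin Mgl2 by -2.29 ± 0.25 (-1.05 with values below an array's median set to it), where 23.3% of all genes fell and 17.4% rose. In CD8a+ cDC 5 of 10 rose and 2 fell, near the 41.9% and 14.8% of all genes that did, the largest rises being those of Pdcd1lg2 (2.90 ± 0.17) and the chemokine receptor Ccr7 (2.84 ± 0.29).

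The other IRF genes on the array numbered 7. Irf7, which drives type I interferon, rose by 3.80 ± 0.15 in CD11b+ and by 3.65 ± 0.15 in CD8a+ cDC after R848, and Irf1 by 1.55 ± 0.16 and 2.36 ± 0.16. In CD11b+ cDC 3 of the 7 rose and 2 fell, where 17.4% and 23.3% of all genes did. In CD8a+ cDC 2 of 6 tested rose and none fell, where 41.9% and 14.8% of all genes did. In LysoMac Irf7 was 2.71 ± 0.11 higher than in CD11b+ and DN cDC. The regulators of plasmacytoid dendritic cells, 4 of 5 on the array, include Irf7 again and Tcf4, their defining E protein, and after R848 Tcf4 was lower in CD8a+ than in CD11b+ cDC by -1.15 ± 0.15 and Bcl11a by -1.28 ± 0.26 (2 of 4 higher, 2 lower).

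Batf3, an AP-1 factor that sustains Irf8 expression in cDC1, was expressed in every cDC group and was no higher in the CD8a+ than in the CD11b+ cells of untreated mice. It read 8.53, 8.24 and 8.40 on the CD8a+ arrays, 8.74 to 9.21 on the CD11b+ arrays (median 8.86) and 8.51, 8.59 and 8.55 on the DN arrays. The CD8a+ arrays all lay below the CD11b+ arrays, with a difference of -0.51 ± 0.14 (adjusted p = 0.00613). Cyclic loess between arrays ended that call (-0.27, adjusted p = 0.102), as did a shift of all arrays to a common median (-0.26, adjusted p = 0.178). LysoMac were lower, at 6.83, 7.30 and 6.80 in TIM-4- and 7.40, 7.36 and 7.39 in TIM-4+ cells (-1.54 ± 0.11 against the mean of CD11b+ and DN cDC, adjusted p = 7.66e-11). After R848 the order of the subsets was turned, with 7.97, 7.74 and 7.75 in CD11b+ cDC and 8.09 to 8.86 in CD8a+ cDC (median 8.49), a difference of 0.71 ± 0.14 (adjusted p = 0.00138). Batf3 fell by 1.08 in CD11b+ cDC on the log2 scale (adjusted p = 3.97e-06), while its difference in CD8a+ cDC was 0.13 ± 0.14 (adjusted p = 0.433, and -0.02 after the shift to a common median). The responses differed by 1.21 ± 0.20 (adjusted p = 0.000137).

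Among 8 AP-1 and Batf partners, Batf, which can stand in for Batf3, also changed its order between the subsets, being 0.96 ± 0.17 higher in CD8a+ than in CD11b+ cDC after R848 and lower there without treatment (-0.82 ± 0.17). In CD11b+ cDC 5 of 6 tested members of the list fell after R848, including Junb (-1.19 ± 0.18) and Fos (-1.19 ± 0.29), and none rose. There 23.3% of all genes fell and 17.4% rose. In CD8a+ cDC 1 of 6 rose and 2 fell, where 41.9% and 14.8% of all genes did. Of 7 further cDC1 regulators, Bcl6, a transcriptional repressor, was 1.70 ± 0.18 higher in CD8a+ than in CD11b+ cDC without treatment, where 1 of 4 tested was higher and 2 lower. Mycl, which supports cDC1 growth, fell in CD8a+ cDC after R848 (-1.97 ± 0.12), where 1 of 5 rose and 1 fell. In LysoMac 3 of 5 were lower than in CD11b+ and DN cDC, led by Cbfa2t3 (-3.79 ± 0.09), a corepressor that supports Irf8 in cDC progenitors, and Bcl6 (-3.42 ± 0.14).

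Id2 was measured without row matching after R848 alone. It read 11.22, 11.02 and 11.19 in CD11b+ cDC and 11.14, 11.18, 11.19, 11.32 and 11.34 in CD8a+ cDC, with overlapping arrays and a difference of 0.09 ± 0.09 (95% interval -0.10 to 0.28, adjusted p = 0.673). With the looser row match Id2 averaged 10.97 in CD11b+, 10.75 in DN and 10.58 in CD8a+ cDC, against 6.77 for LysoMac without and 7.03 for LysoMac with TIM-4. All 11 untreated cDC arrays then lay above the 6 LysoMac arrays (10.27 to 11.31 against 6.64 to 7.47), but 3 and 2 of the 8 rows around Id2 were unpaired in the untreated sets, so these levels are less certain than those of the other members. Of 4 related E and Id proteins, Id3 and Id1 were higher in DN than in CD11b+ cDC (2.26 ± 0.22 and 1.03 ± 0.18, 2 of 3 tested), and both are also expressed in endothelium, whose markers were high in the DN samples. Their part in the result was not tested. Tcf3, which encodes an E protein, rose in CD8a+ cDC after R848 (1.28 ± 0.19, 1 of 4 higher and none lower).

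Zeb2, a zinc finger repressor, separated the cells in 4 steps. It read 9.36, 9.46 and 9.14 in TIM-4- LysoMac and 9.10, 9.29 and 9.37 in TIM-4+ LysoMac. CD11b+ cDC had 7.43, 7.58, 7.80, 7.38 and 7.75, and DN cDC 7.22, 6.85 and 7.06. CD8a+ cDC had 4.12, 4.02 and 4.04, with no overlap between these steps. Zeb2 was lower in CD8a+ than in CD11b+ cDC (log2 difference -3.53 ± 0.13, adjusted p = 1.77e-14, at least 8.31-fold with the CD8a+ arrays set to their medians) and higher in LysoMac than in CD11b+ and DN cDC by 1.97 ± 0.10 (3.91-fold, adjusted p = 3.51e-13). After R848 it read 8.09, 7.83 and 7.95 in CD11b+ cDC and 5.36, 5.26, 5.43, 5.38 and 4.76 in CD8a+ cDC, the difference still being -2.72 ± 0.13 (6.58-fold, adjusted p = 3.18e-12). This was the largest difference of any member after R848, inside 1 array set. Zeb2 rose by 1.18 ± 0.13 in CD8a+ cDC after R848 (adjusted p = 2.67e-07), and the responses of the subsets differed by 0.81 ± 0.19 (adjusted p = 0.00263). With the untreated CD8a+ arrays set to their medians the rise was 0.71, and the difference of the responses was no longer called (0.34, adjusted p = 0.17). Its rise of 0.37 ± 0.13 in CD11b+ cDC (adjusted p = 0.0319) was lost when untreated CD11b+ replicate 1 or 4, or R848 CD11b+ replicate 1 or 3, was left out (0.33, 0.32, 0.30 and 0.37). Among 8 relatives of the KLF and Zeb families, Zeb1 was 0.51 ± 0.12 higher in CD8a+ than in CD11b+ cDC after R848 and Klf3 0.90 ± 0.13 higher, with 2 of 8 higher and 1 lower.

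Zbtb46 encodes a repressor that marks cDC against other myeloid cells. Its levels were 6.03 to 6.49 on the CD11b+ arrays, 5.65 to 6.17 on the DN arrays and 5.84 to 6.47 on the CD8a+ arrays. These overlapped, and the difference of CD8a+ from CD11b+ cDC was -0.05 (95% interval -0.36 to 0.26, adjusted p = 0.819, and 0.20 after the shift to a common median). LysoMac read 4.67, 4.52 and 4.47 (TIM-4-) and 4.83, 4.60 and 4.39 (TIM-4+), below every cDC array, with a difference of -1.52 ± 0.11 from CD11b+ and DN cDC (adjusted p = 2.17e-10, and -1.29 with the LysoMac arrays set to their medians). After R848 it fell in CD11b+ cDC (-0.74 ± 0.15, adjusted p = 0.000439), to 5.23, 5.64 and 5.58, and in CD8a+ cDC (-0.49 ± 0.15, adjusted p = 0.00884), to 5.44 to 5.86. The fall in CD8a+ cDC was lost without untreated CD8a+ replicate 1 (-0.34, adjusted p = 0.0887). With the row-match settings tried first, Zbtb46 of untreated CD8a+ cDC was paired with another row and the same difference was -1.05 (adjusted p = 0.000167). Over 25 arrays Zbtb46 correlated with Batf3 at 0.876.

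**Figure D3:**
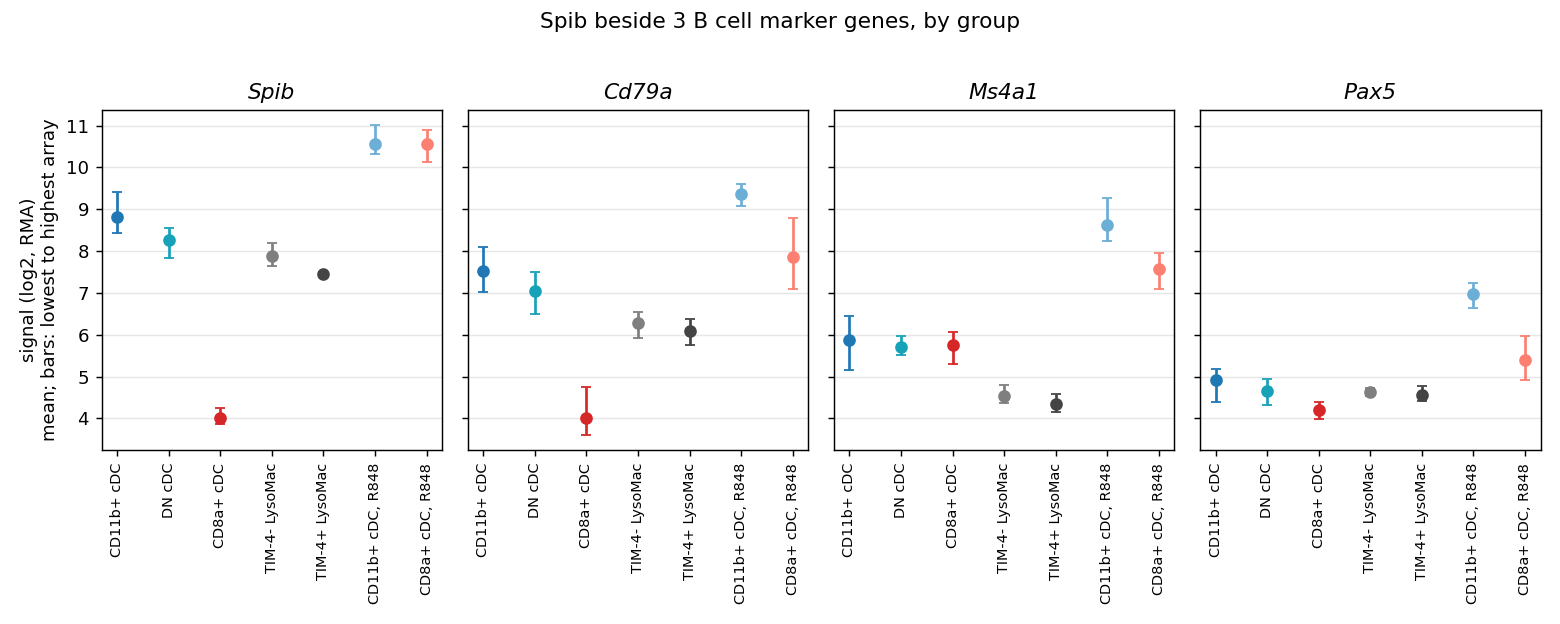
Level of Spib and of the B cell genes Cd79a, Ms4a1 and Pax5 (y axis, log2 signal) in each group (x axis); points are group means and bars run from the lowest to the highest array. After R848 Spib is at 10.56 in CD11b+ and 10.55 in CD8a+ cDC, while all 3 B cell genes are higher in CD11b+ than in CD8a+ cDC.

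Spib had the widest range of the members. It read 3.86, 3.89 and 4.24 on the untreated CD8a+ arrays, against 8.76, 8.56, 8.44, 8.91 and 9.42 on the CD11b+ arrays and 8.45, 7.83 and 8.55 on the DN arrays. LysoMac had 7.81, 7.65 and 8.20 (TIM-4-) and 7.44, 7.39 and 7.51 (TIM-4+). Spib was thus low in untreated CD8a+ cDC alone among the untreated groups (-4.82 ± 0.23 against CD11b+ cDC, adjusted p = 5.39e-13, and 4.28 ± 0.26 for DN minus CD8a+ cDC, adjusted p = 3.25e-11). Those CD8a+ levels were below the medians of their arrays, the highest of which was 4.59, and may be background. Set to these medians, they leave Spib at least 19.5-fold lower than in CD11b+ cDC and at least 13.4-fold lower than in DN cDC. After R848 it read 11.01, 10.32 and 10.34 in CD11b+ cDC and 10.72, 10.89, 10.91, 10.12 and 10.12 in CD8a+ cDC. The arrays of both subsets overlapped, with a difference of 0.00 ± 0.23 (log2, 95% interval -0.49 to 0.48, adjusted p = 0.997). Relative to untreated cells Spib rose by 6.56 ± 0.23 in CD8a+ cDC (adjusted p = 3.78e-15, at least 64.8-fold) and by 1.74 ± 0.23 in CD11b+ cDC (3.34-fold, adjusted p = 4.69e-06). The difference between the responses was 4.82 ± 0.33 (adjusted p = 1.3e-09), and 4.28 with the untreated CD8a+ arrays at their medians.

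The low Spib level in untreated CD8a+ cDC depends on the row given to it, which was checked. Its row was accepted, 8 rows on each side were paired without a gap, and none of these differed between untreated and R848 CD8a+ cDC by more than 0.98. The nearest row with a level of 8 or more lay 16 rows away, and a direct alignment of both untreated sets gave the same partner. Under the row-match settings tried first the partner was the same but was not accepted. A Spib row missing from that set, with another row put in its place, cannot be told apart from a low level by these values.

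B cell genes also rose after R848. Cd79a, the signalling chain of the B cell receptor, went from 4.01 ± 0.64 (n = 3) to 7.86 ± 0.77 (n = 5) in CD8a+ cDC and from 7.54 ± 0.39 (n = 5) to 9.37 ± 0.26 (n = 3) in CD11b+ cDC. Ms4a1 (CD20) went from 5.75 ± 0.39 to 7.58 ± 0.42 and from 5.88 ± 0.53 to 8.62 ± 0.57, and Pax5, the B cell commitment factor, from 4.19 ± 0.20 to 5.41 ± 0.42 and from 4.92 ± 0.31 to 6.99 ± 0.32. Of the B cell markers tested, 4 of 5 rose after R848 in CD8a+ cDC and 6 of 6 in CD11b+ cDC, where 41.9% and 17.4% of all genes did. After R848 6 of 6 were lower in CD8a+ than in CD11b+ cDC, with a median difference of -1.41, while Spib did not pass the test there. The M cell gene Gp2 was 4.72 in CD11b+ and 3.54 in CD8a+ cDC after R848. Of 7 plasmacytoid dendritic cell markers 4 were lower in CD8a+ than in CD11b+ cDC after R848 and none was higher, with a median difference of -1.15. These were Ccr9 (8.65 in CD11b+ and 4.74 in CD8a+ cDC), Lair1 (8.34 and 5.31), Ly6d (10.10 and 8.19) and Tcf4 (7.94 and 6.79), while the defining marker Siglech was at 4.37 and 4.42. The part of other cells in the Spib result was not tested.

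Spi1 was the most even member. Its group means lay between 10.09 and 11.01, at percentiles 97.8 to 99.1 of all genes. It read 10.31, 10.32 and 10.33 in untreated CD8a+ cDC and 10.78 to 11.27 in CD11b+ cDC (-0.69 ± 0.11, adjusted p = 3.92e-05). After R848 it fell in CD11b+ cDC, to 10.04, 10.05 and 10.17 (-0.92 ± 0.11, adjusted p = 1.17e-06), and the subsets then overlapped (0.04 ± 0.11, adjusted p = 0.928). In CD8a+ cDC the difference was -0.20 ± 0.11 (adjusted p = 0.132), and it passed after cyclic loess (-0.43) and after the shift to a common median (-0.36). The responses of the subsets differed by 0.72 ± 0.16 (adjusted p = 0.00156). Its difference in LysoMac (-0.28 ± 0.08, adjusted p = 0.0128) was lost after cyclic loess (-0.04), with only the groups compared (-0.28), and without TIM-4+ LysoMac replicate 3 (-0.22). Of 10 other Ets factors, 6 were tested in the response of CD8a+ cDC and 5 rose and 1 fell. There 41.9% of all genes rose and 14.8% fell. Spic, a macrophage factor close to Spib, rose by 3.82 ± 0.20 in CD8a+ cDC, Etv3 rose by 2.14 ± 0.15, and Fli1 fell (-2.48 ± 0.25). After R848 Spic was also higher in CD8a+ than in CD11b+ cDC (1.74 ± 0.20), where 1 of 10 was higher and 3 lower.

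Rbpj, the DNA-binding effector of Notch signalling, was highest in untreated CD8a+ cDC, with 9.73, 9.75 and 9.66 against 8.59 to 9.12 in CD11b+ cDC (0.90 ± 0.12, adjusted p = 3.95e-06). DN cDC had 8.45, 8.16 and 8.58, and LysoMac had 7.60, 7.87 and 8.23 (TIM-4-) and 7.39, 7.44 and 7.40 (TIM-4+). Rbpj was lower in LysoMac than in CD11b+ and DN cDC (-0.95 ± 0.09, adjusted p = 1.48e-08). After R848 the subsets were close, at 8.62, 8.48 and 8.47 in CD11b+ and 8.75 to 8.92 in CD8a+ cDC, which do not overlap with a difference of 0.27 ± 0.12 (adjusted p = 0.178, and 0.0397 with only these groups in the fit). Rbpj fell in CD8a+ cDC (-0.92 ± 0.12, adjusted p = 2.11e-06), and its difference in CD11b+ cDC was -0.29 ± 0.12 (adjusted p = 0.0607, passing without untreated replicate 1 or 3 at -0.33 and -0.34). A second transcript cluster of Rbpj read 2.99 to 3.56 on average in every group, and with the mean of both clusters the fall in CD8a+ cDC was no longer called (-0.17, adjusted p = 0.183) and the untreated difference between the subsets was 0.33 (adjusted p = 0.0156). The difference between the responses of the subsets (-0.63 ± 0.17, adjusted p = 0.00771) was not called with that mean either (-0.13, adjusted p = 0.526).

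The Notch list held 21 genes. After R848 2 were higher and 5 lower in CD8a+ than in CD11b+ cDC, the ligand Dll4 at -1.30 ± 0.25, the ligand Jag1 at 0.98 ± 0.20, the Notch inhibitor Numb at 1.05 ± 0.13 and the target Hes1 at -0.68 ± 0.17. In the response of CD8a+ cDC 4 of 16 rose and 7 fell, where 41.9% and 14.8% of all genes did, with Jag1 at 2.80 ± 0.20 and the receptor gene Notch4 at -1.07 ± 0.12. In CD11b+ cDC 4 of 20 rose and 6 fell, near the 17.4% and 23.3% of all genes that did. The fringe gene Mfng was at -1.42 ± 0.19 and the protease Adam10, which cleaves Notch, at 1.27 ± 0.14. In DN cDC Hes1 alone of 20 was higher than in CD11b+ cDC (0.77 ± 0.17), where 2.61% of all genes were. All 9 stromal and endothelial markers were also higher there, and the part of such cells in the Hes1 value was not tested.

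Klf4, a zinc finger factor needed by a subset of cDC2, was highest in the SIRPa+ cDC of untreated mice. It read 8.12, 8.13, 8.37, 7.29 and 7.46 in CD11b+ cDC and 8.40, 7.64 and 8.91 in DN cDC. CD8a+ cDC had 6.71, 5.60 and 5.89 and LysoMac 5.38 to 6.16, below all of these arrays. The difference of CD8a+ from CD11b+ cDC was -1.81 ± 0.29 (3.50-fold, adjusted p = 3.31e-05) and that of LysoMac from CD11b+ and DN cDC -2.39 ± 0.22 (5.23-fold, adjusted p = 6.38e-09). After R848 Klf4 fell in CD11b+ cDC (-2.06 ± 0.29, 4.18-fold, adjusted p = 7.61e-06), to 5.71, 5.94 and 5.78. It also fell in CD8a+ cDC (-0.83 ± 0.29, adjusted p = 0.0184), to 4.81 to 5.69, a call lost without untreated CD8a+ replicate 1 (-0.51, adjusted p = 0.175). The difference between these responses (1.23 ± 0.41, adjusted p = 0.0248) was lost under both rescalings (0.99 and 1.04) and when untreated CD8a+ replicate 2 (1.00) or 3 (1.14) or R848 CD11b+ replicate 1 (1.18) was left out. Of the KLF and Zeb relatives, 6 were tested in CD11b+ cDC, where 2 rose and 4 fell after R848, with Klf10 at -1.69 ± 0.17 and Klf2 at -0.81 ± 0.20. Epithelial and M cell markers are given beside Klf4. The mean of 7 with values on all arrays was 5.91 in CD11b+, 6.65 in DN and 4.45 in CD8a+ cDC, untreated. It was 4.79 in TIM-4- and 4.67 in TIM-4+ LysoMac. After R848 it was 4.58 in CD11b+ and 4.22 in CD8a+ cDC. In CD11b+ cDC 4 of 8 fell after R848 and none rose (median -1.52), where 23.3% of all genes fell. In CD8a+ cDC 1 of 7 fell and none rose. The part of such cells in the Klf4 values was not tested.

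**Figure D4:**
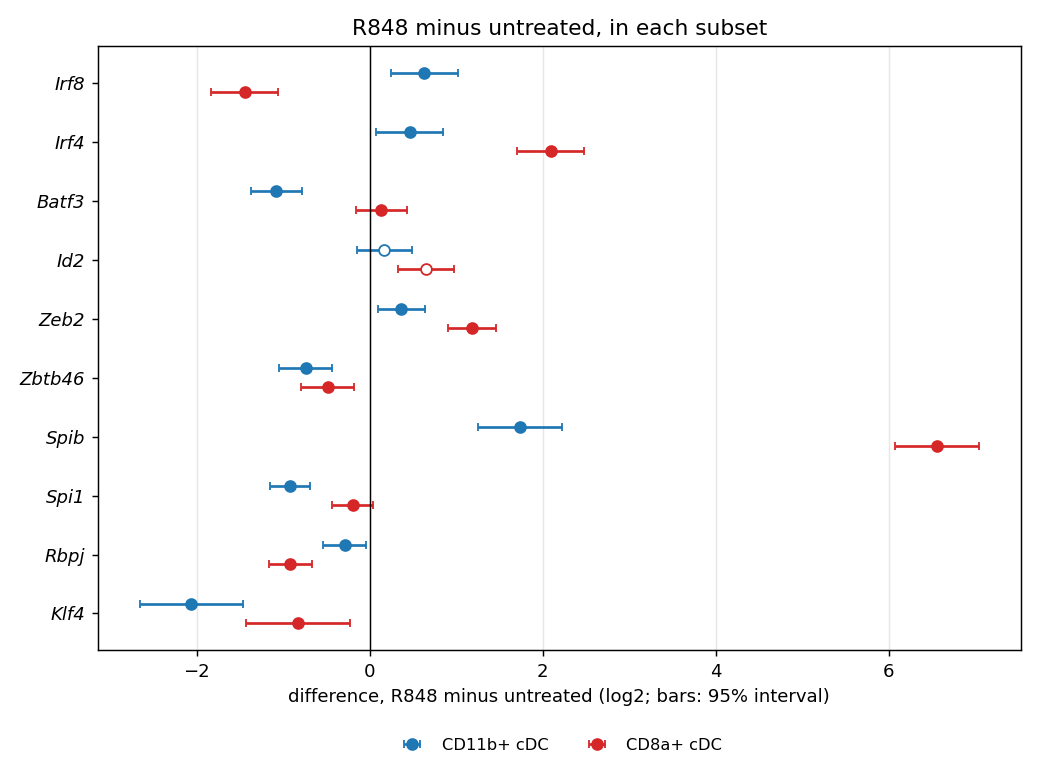
Difference between R848 and untreated arrays for each gene (x axis, log2, with 95% interval) in CD11b+ cDC (blue) and CD8a+ cDC (red); open points for Id2 are the looser row match. Spib shows the widest gap between the subsets (1.74 and 6.56), and Irf8 differs in sign (0.63 and -1.45).

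Between DN and CD11b+ cDC 2 of 9 members differed, Irf8 (-0.82 ± 0.19, adjusted p = 0.0112) and Zeb2 (-0.55 ± 0.13, adjusted p = 0.0176), where 4.33% of all genes were called, 2.61% higher and 1.72% lower. Both calls were lost with only these groups in the fit (adjusted p = 0.215 and 0.0821) and without DN replicate 2 (-0.52 and -0.45). Irf8 was also lost without DN replicate 1 (-0.80), and Zeb2 without DN replicate 3 (-0.55) or CD11b+ replicate 5 (-0.51). Irf4 differed by 0.33 (95% interval -0.06 to 0.71), Klf4 by 0.44 (-0.16 to 1.04) and Rbpj by -0.41 (-0.66 to -0.16, adjusted p = 0.0562). Rbpj passed after the shift to a common median (-0.49) and without CD11b+ replicate 1 (-0.45) or 3 (-0.47) or DN replicate 3 (-0.51). All 9 stromal and endothelial markers were higher in DN cDC, with a median difference of 1.95, and their part in these values was not tested. Among 12 early haematopoietic factors, Runx1 was lower in DN cDC (-1.41 ± 0.18, 2 of 10 lower and none higher).

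Between TIM-4+ and TIM-4- LysoMac none of 9 members passed the test (limma), where 0.448% of all genes were called (0.196% higher and 0.252% lower), and Batf3, Rbpj and Spib differed without overlap of arrays, as did 10.7% of all genes (0.41 ± 0.16, -0.49 ± 0.14 and -0.44 ± 0.26). The unadjusted p was under 0.05 for 2 of them in limma, Rbpj (0.00146) and Batf3 (0.0185), and without TIM-4- replicate 1 Rbpj passed (-0.64, adjusted p = 0.044). Of 8 macrophage regulators tested between all LysoMac and the mean of CD11b+ and DN cDC, 5 were higher in LysoMac and 1 lower, Nr1h3 (LXR alpha) by 4.02 ± 0.18, Rxra by 2.25 ± 0.18 and Cebpa by 1.33 ± 0.17. Of 4 NF-kB factors, Rel (-1.83 ± 0.08) and Relb (-0.41 ± 0.09) were lower in LysoMac. After R848 all 4 rose in CD11b+ cDC, Rela by 0.92 ± 0.18, and both that could be tested rose in CD8a+ cDC, Rela by 1.70 ± 0.18. Stat3, of the early factors, rose by 0.81 ± 0.11 and 1.93 ± 0.11, and the Runt factor Runx3 fell 4.01-fold in CD11b+ cDC (adjusted p = 5.78e-08).

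The genes whose levels followed each member most closely over the 25 arrays were named from 13673 genes with values on all arrays, by Pearson correlation. For Irf8 these were Plin2, which coats lipid droplets (0.937), F630111L10Rik (0.927) and Mpeg1, the pore-forming perforin-2 (0.918). For Irf4 they were the chemokine receptor Ccr6 (0.950), the oxysterol receptor Gpr183 (0.941) and the transcription factor Bhlhe40 (0.923). Zeb2 was followed by Pla2g7 (0.971), Gpm6b (0.971) and St8sia6 (0.962), and Spib by Mreg (0.986), Cyria (0.968) and Filip1l (0.948). Zbtb46 was followed by Diaph2 (0.935) and Cbfa2t3 (0.924), Rbpj by Pfkp (0.967), Klf4 by Acap1 (0.938) and Batf3 by Gm10612 (0.903). The correlations describe 7 groups rather than 25 independent samples.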

How the data were processed

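The data are log2 signals that the authors made with RMA in Affymetrix Expression Console 1.4.1, per the submitters' processing notes, and deposited as 1 table. The build of the annotation is not given in the sources used here. In the deposited row order the untreated columns correlated with the R848 columns at 0.0232 and 0.0504, so rows were aligned in order. The first 6617 rows were left out. Of the other 28939 rows, 21788 and 22409 were accepted in the 2 untreated sets, with correlations of 0.967 and 0.949. Acceptance required the same partner in 3 settings and a correlation of at least 0.7 over 15 neighbouring rows each side. On simulated rows at most 0.849% had a wrong partner. These rows were made from the R848 arrays of both subsets, with noise added and 500 rows taken out and 500 put in. Untreated rows of another array set were not simulated, so the share of wrong partners in the data is not known. The alignment settings were revised, by simulation and by a shifted control, while values of the members were visible. The settings tried first accepted no row for Spib or Klf4 in untreated CD8a+ cDC, or for Zbtb46 in the other untreated set. The alignment compares the groups tested for R848 and can favour rows with small responses.

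Groups follow the labels. limma 3.58.1 (R 4.3.3) was fitted to all arrays at once, with each gene's arrays that lacked an accepted row dropped, and 9 comparisons were made. On simulated data for the subset comparison after R848 (13673 genes), 94 of 100 genes changed by 1 log2 unit and 100 of 100 changed by 2 were recovered, with 12 false calls. The text names the members and, from each list, called genes with the largest absolute log2 difference, at most 4 a list and comparison. Members, lists and rules were chosen with earlier results of these data known. Alternatives were array scaling, low-signal filtering, row-match stringency, averaging of transcript clusters, fits to the compared groups alone, a replicate block, leaving out each replicate and, added later, a floor at each array's median for members and listed genes. The design text calls the replicates independent, and the number of arrays limits the precision. Promoters are from RefSeq (GRCm38.p6).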

Additional observations from a re-analysis of the deposited data

Results flagged for a closer look

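The response to R848 differed between CD8a+ and CD11b+ cDC, by a test of the difference itself, for 8 members. On the log2 scale the difference of responses was 4.82 for Spib, 1.63 for Irf4, 1.23 for Klf4, 1.21 for Batf3, 0.81 for Zeb2 and 0.72 for Spi1. It was -2.08 for Irf8 and -0.63 for Rbpj. With untreated levels below the array medians set to them, it was 4.28 for Spib and 0.34, no longer called, for Zeb2. The call of Klf4 was lost under both rescalings, and was kept in 13 of 16 fits with 1 replicate left out. The call of Rbpj was lost with the mean of both its transcript clusters. Untreated CD8a+ cDC, untreated CD11b+ cDC and the R848 arrays came from 3 array sets, which cannot be told apart from these differences.

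Single arrays stood apart from their group in 2 of 19 groups of values looked at, where chance gives about 1 in 20. Zeb2 read 4.76 in CD8a+ cDC after R848, replicate 5, below the other arrays of that group. Rbpj read 8.92 in replicate 3 of the same group, above the others.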

How the results depend on the processing

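With no array left out, 709 of the single-gene values under other settings kept direction and side of the threshold, 14 lost the call, 11 gained it and 8 reversed. After the shift to a common median, Spib after R848 was 0.005, Zbtb46 in untreated CD8a+ against CD11b+ cDC 0.201, Batf3 in DN against CD8a+ cDC -0.161 and Batf3 in the response of CD8a+ cDC -0.024, and 2896 genes differed in response. Cyclic loess gave 0.21 for that Zbtb46 difference. The share of called genes that were higher went from 18.1% to 59.7% and 49.4% under these scalings for untreated CD8a+ against CD11b+ cDC, from 77.7% to 27.5% and 50.8% for DN against CD8a+ cDC, from 73.9% to 51.5% and 50.2% and from 42.7% to 57.1% and 50.8% for the responses of CD8a+ and CD11b+ cDC, from 81.9% to 45.3% and 48.6% for their difference, and from 60.3% to 37.2% and 64.3% for DN against CD11b+ cDC.

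With genes at a group mean of 5 or more, fewer were tested, and 3698, 3486, 4915 and 2636 were called for untreated CD8a+ against CD11b+ cDC, DN against CD8a+ cDC, the response of CD8a+ cDC and the difference of responses. With only the groups compared, 317 genes and 0 members were called for DN against CD11b+ cDC and 26 genes for TIM-4. The stricter row match tested fewer genes and called 1111, 216, 990, 1627, 24, 2096, 3451 and 776, in the order untreated CD8a+ against CD11b+, DN against CD11b+, DN against CD8a+, LysoMac, TIM-4, the responses of CD11b+ and CD8a+ cDC and their difference, with 1 of 2 members for DN against CD11b+, 2 of 2 for LysoMac, 1 of 2 and 1 of 1 for the responses. Row-match settings tried first, added after seeing the data, kept all counts within 1.5 times, as did setting values of the members and listed genes below their array's median to it.

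Replicate numbers were not used as pairs. Correlations of deviations between arrays of the same number were -0.228 to 0.18. Inside the set of LysoMac, CD11b+ and DN arrays most were positive. They were 0.053 to 0.155 for DN cDC with TIM-4- LysoMac, but -0.105 to 0.099 for CD11b+ cDC with TIM-4- LysoMac. Arrays of different numbers were not compared, so these values do not settle whether the samples are paired. With a replicate block, Spib and Spi1 after R848 were 0.023 and -0.018 and Zbtb46 untreated 0.036, and the calls of Zeb2 in CD11b+ cDC (0.30) and Klf4 in CD8a+ cDC (-0.62) after R848 were lost.

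Leaving out 1 replicate gave 1760 to 2344 genes after R848 and 5170 to 6275 untreated for CD8a+ against CD11b+ cDC, 457 to 868 for DN against CD11b+, 4782 to 5104 for DN against CD8a+, 4493 to 5010 for LysoMac, 43 to 76 for TIM-4, 5313 to 6317 and 7663 to 8873 for the responses of CD11b+ and CD8a+ cDC and 3618 to 4524 for their difference. Members called were 0 to 3 for DN against CD11b+, 8 to 9 for LysoMac, 0 to 1 for TIM-4, 6 to 8 and 5 to 7 for the responses and 7 to 8 for their difference, and did not change for the other comparisons. The direction reversed for differences that were not called: Zbtb46 untreated went from -0.192 to 0.124, in TIM-4 Zeb2 from -0.158 to 0.008, Klf4 from -0.343 to 0.002, Zbtb46 from -0.064 to 0.16 and Spi1 from -0.181 to 0.047, and after R848 Spib from -0.122 to 0.221 and Spi1 from -0.004 to 0.077. The cause was not tested.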
